A study of Mus musculus with 4 samples.

Results

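The genes described here belong to families of enzymes that add methyl groups to lysines of histones or take them off again. They were chosen by symbol alone, from a pattern that covers the KDM, KMT2, KMT5, SETD, EHMT, SUV39H and SMYD families with Nsd1, Dot1l and Ash1l. The pattern matched 48 of 24943 genes, 4 of which (Kdm5d, Kdm6a, Kmt2c and Kmt2d) were omitted by the same definition, which left 44. Of these, 28 belong to methyltransferase families (called writers here) and 16 to demethylase families (called erasers), whatever the targets of each product. In total 41 had at least 1 count per 1000000 in any library before scaling between libraries, which is called reaching 1 CPM here. The CPM values printed below are scaled. The other 3, Smyd1, Setdb2 and Kdm4d, stayed below it. Nsd2 and Nsd3, which the table lists under those names, lie outside the pattern.

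Histone lysine methylation is read by position. Methylation of H3 lysine 4 marks promoters and enhancers, that of lysine 36 marks transcribed gene bodies, and that of lysine 9 marks heterochromatin. Each position has its own writers, most of them SET domain proteins, and its own erasers, which are either FAD-dependent amine oxidases (the LSD enzymes) or JmjC dioxygenases. Several writers and erasers are recurrently mutated or rearranged in human lymphoma and leukaemia, Kmt2a and Setd2 among them.

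The data are poly(A) RNA-seq counts from 4 libraries, each of spleen cells from a transgenic mouse whose spleen was enlarged by tumour, after lysis of red cells. All 4 carry identical labels and form 1 group, called lymphoma 1 to 4 here in accession order. The labels name neither the transgene nor its promoter, nor the age or strain, and do not say that the libraries came from separate mice. The series concerns a TP63 fusion in the formation of mouse lymphoma, and its sample labels do not say which mice carried one. No contrast between conditions exists, so no p-value is given, and each library is compared with the others by size.

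The libraries held between 7773546 and 9602413 counts. All 4 expressed leukocyte genes, with Coro1a between 1017 and 1948 CPM, but they differed in the RNA of cell type markers. Summed over 8 B cell markers, with Cd79a at the highest mean CPM, the level was 67.1, 1359.6, 4409 and 5991 CPM in lymphomas 1 to 4, and over 8 T cell markers, with Tcf7 at the highest, 4789, 3717, 402 and 952 CPM. The 12 proliferation markers summed to 2903, 2168, 3722 and 433 CPM, and 11 of them were lowest in lymphoma 4, Mki67 being the exception. Sums over 9 myeloid markers were 142, 439, 201 and 882 CPM. Those over 6 NK markers were 2.65, 94.6, 32.8 and 166 CPM, with Prf1 at 0 counts in lymphoma 1, and those over 6 dendritic cell markers 2.15, 28.9, 15.3 and 105 CPM, with Xcr1 and Zbtb46 at 0 counts there. Sums over 7 stromal and endothelial markers were 17.4, 14.7, 13.4 and 7.81 CPM, with Col3a1 at 0 counts in all 4. The part of these cells in the results below was not tested. In bulk RNA, fewer cells of a type and less RNA per cell cannot be told apart.

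Lymphomas 1 and 2 may not be independent. Across 54 genes with 10 CPM or more in lymphoma 1 and at least 20-fold more than in lymphomas 3 and 4, lymphoma 2 held a median of 66.4% of the lymphoma 1 level (quartiles 64.6% and 69.9%). Among the 41 methylation enzyme genes lymphoma 2 was neither the highest nor the lowest library for 37 (90.2%), against 88.4% of all 13543 genes that reached 1 CPM.

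Most of the enzyme genes had their lowest level in lymphoma 1 and many their highest in lymphoma 4. Lymphoma 1 was the lowest library for 26 of 41, or 63.4%, against 39.5% of all genes tested. Lymphoma 4 was the highest for 22 of 41, or 53.7%, against 34.0%. Both held at once for 20 genes (48.8%, against 23.0%). Lymphoma 3 was the highest library for 12 (29.3%, against 30.4%) and lymphoma 2 for 3 (7.32%, against 6.32%), shares near the background. Lymphoma 1 was the highest for 4, namely Suv39h2, Kmt5a, Smyd2 and Kdm2b (9.76%, against 29.4%). Lymphoma 3 was the lowest for Setd7, Smyd2, Kdm2b, Kdm5b and Kdm7a (12.2%, against 22.1%), and lymphoma 2 for Smyd5 (2.44%, against 5.25%). The 9 genes lowest in lymphoma 4 (22.0%, against 33.2%) were Suv39h1, Suv39h2, Kmt5a, Kdm1a, Kdm1b, Kdm8, Setd4, Setd6 and Smyd3. By exact Poisson 95% intervals, which cover counting error only, the top library lay clear of the next for 19 of the 22 genes highest in lymphoma 4, against 65.3% of all genes highest there. The bottom library lay clear for 19 of the 26 genes lowest in lymphoma 1, against 41.7%. The width of these intervals depends on a gene's level, so the shares are not matched. Without lymphoma 2, the counts were 23 and 25.

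**Figure D1:**
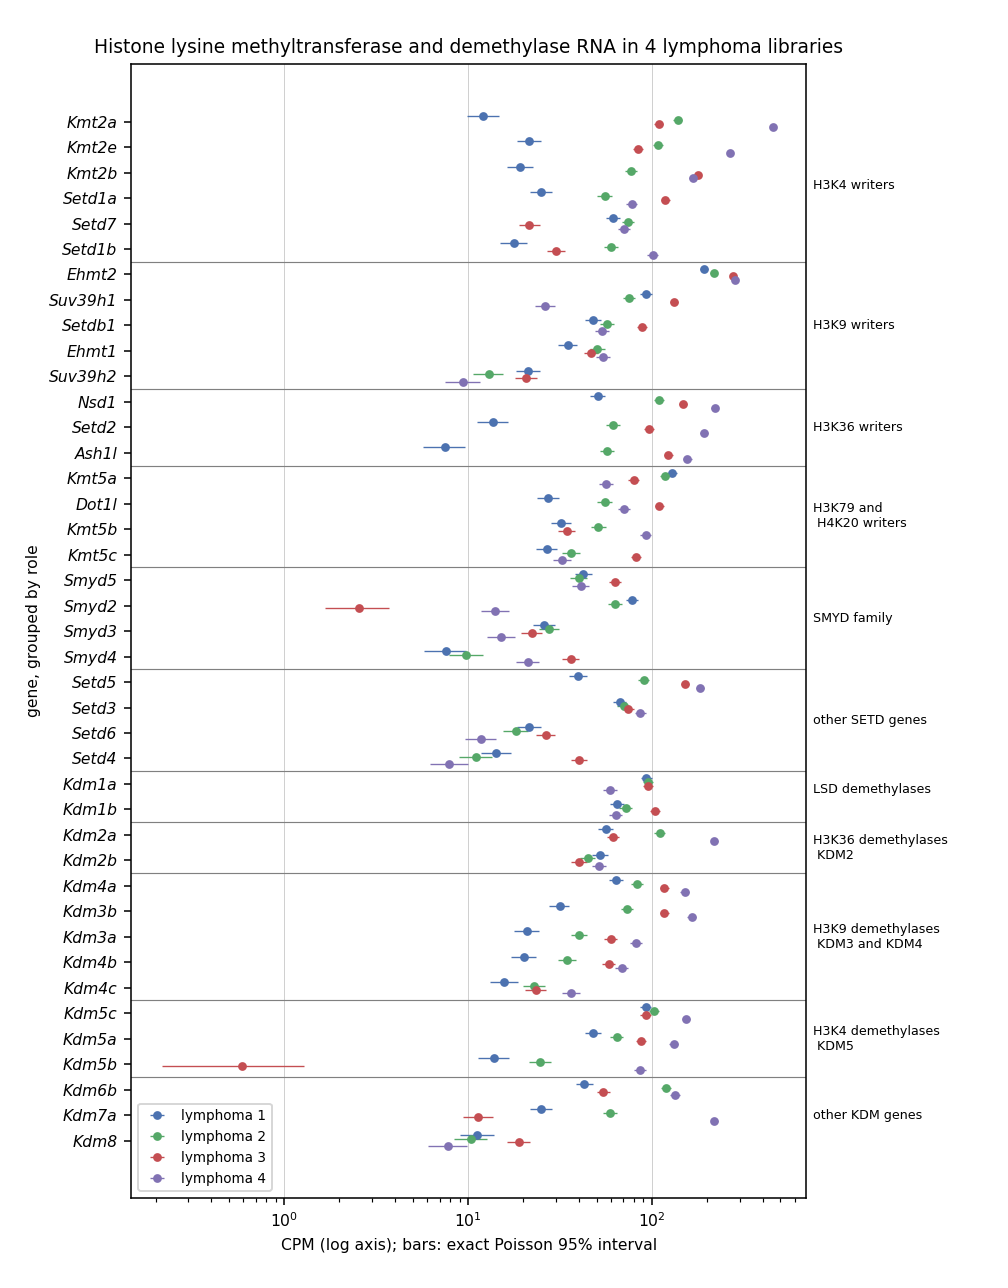
Each row is 1 of the 41 genes that reached 1 CPM, grouped by role and ordered by mean level within a group. Points give CPM on a log axis in lymphomas 1 to 4 and bars the exact Poisson 95% interval. Lymphoma 4 is rightmost for 22 genes and lymphoma 1 leftmost for 26, while Kdm5b and Smyd2 have their lowest points in lymphoma 3.

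A large spread, defined as 8-fold or more between the highest and lowest library in CPM + 1, was found for 8 of 41 genes, or 19.5%, against 16.3% of all genes tested. That share is near the background, as was the 39.0% with a 4-fold range (16 genes, against 35.7%). The 8 were the writers Kmt2a, Kmt2b, Kmt2e, Setd2, Ash1l and Smyd2 and the erasers Kdm5b and Kdm7a. The median SD of log2(CPM + 1) over libraries was 0.80 for the 41 genes and 0.70 for all genes tested. Which library set the range differed between them. Without lymphoma 1, only Kdm5b, Kdm7a and Smyd2 of the 8 kept an 8-fold range. Without lymphoma 3, Kdm5b and Smyd2 lost it and 6 remained. Without lymphoma 4, Kdm7a, Kmt2e and Setd2 lost it and 5 remained.

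Transcript length went along with the pattern. The enzyme genes are long, with a median exonic length of 7110 bases against 4268 bases for all genes tested. Across all 13409 genes with a length, longer transcripts were higher in lymphoma 4 than in lymphoma 1 (Spearman rho of that log2 ratio with length, 0.26). Across the 41 enzyme genes rho was 0.72. Both values are descriptions across genes of the same pair of libraries, and genes are not independent replicates. The 21 longer enzyme genes had a median log2 ratio of lymphoma 4 to lymphoma 1 of 2.09, and 16 of them were highest in lymphoma 4. The 20 shorter ones had a median of 0.07, and 6 were highest in lymphoma 4. The upper quartile of length over all genes was 6616 bases, and 24 enzyme genes were longer than it. Of these, 17 (70.8%) were highest in lymphoma 4, against 48.6% of all genes of that length, and 19 (79.2%) were lowest in lymphoma 1, against 53.5%. Smyd3 was the 1 gene among them with its lowest level in lymphoma 4 (4.17%, against 17.5%).

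The trend was then fitted over all genes, as each library's log2 deviation from the gene mean against length, and subtracted. After that, 15 of 41 enzyme genes (36.6%) were highest in lymphoma 4, against 32.7% of all genes, which is near the background. Lymphoma 1 was then the lowest for 17 (41.5%, against 29.6%), and lymphoma 3 the highest for 17 (41.5%, against 28.2%). Lymphoma 4 was the lowest for 13 (31.7%, against 33.3%). Of the 8 genes with a large spread, Kmt2a, Ash1l, Kdm5b, Kdm7a and Smyd2 kept an 8-fold range without the trend. The ranges of Setd2, Kmt2b and Kmt2e came to 2.76, 2.68 and 2.64 on the log2 scale, where 8-fold is 3. What sets the length trend in these libraries was not tested.

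**Figure D2:**
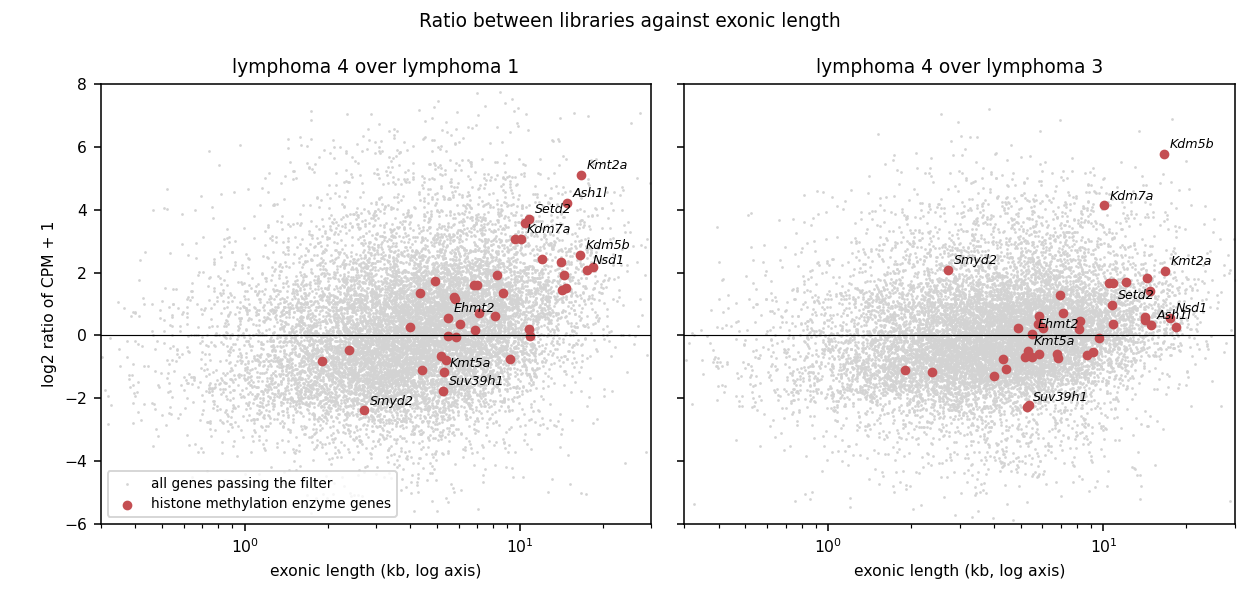
Log2 ratio of CPM + 1 between libraries (left, lymphoma 4 over 1; right, lymphoma 4 over 3) against exonic length in kb on a log axis. Grey points are all genes tested, red points the 41 enzyme genes. On the left the red points climb with length, from Smyd2 at the lower left to Kmt2a and Ash1l at the upper right, and rho over the red points is 0.72.

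**Figure D3:**
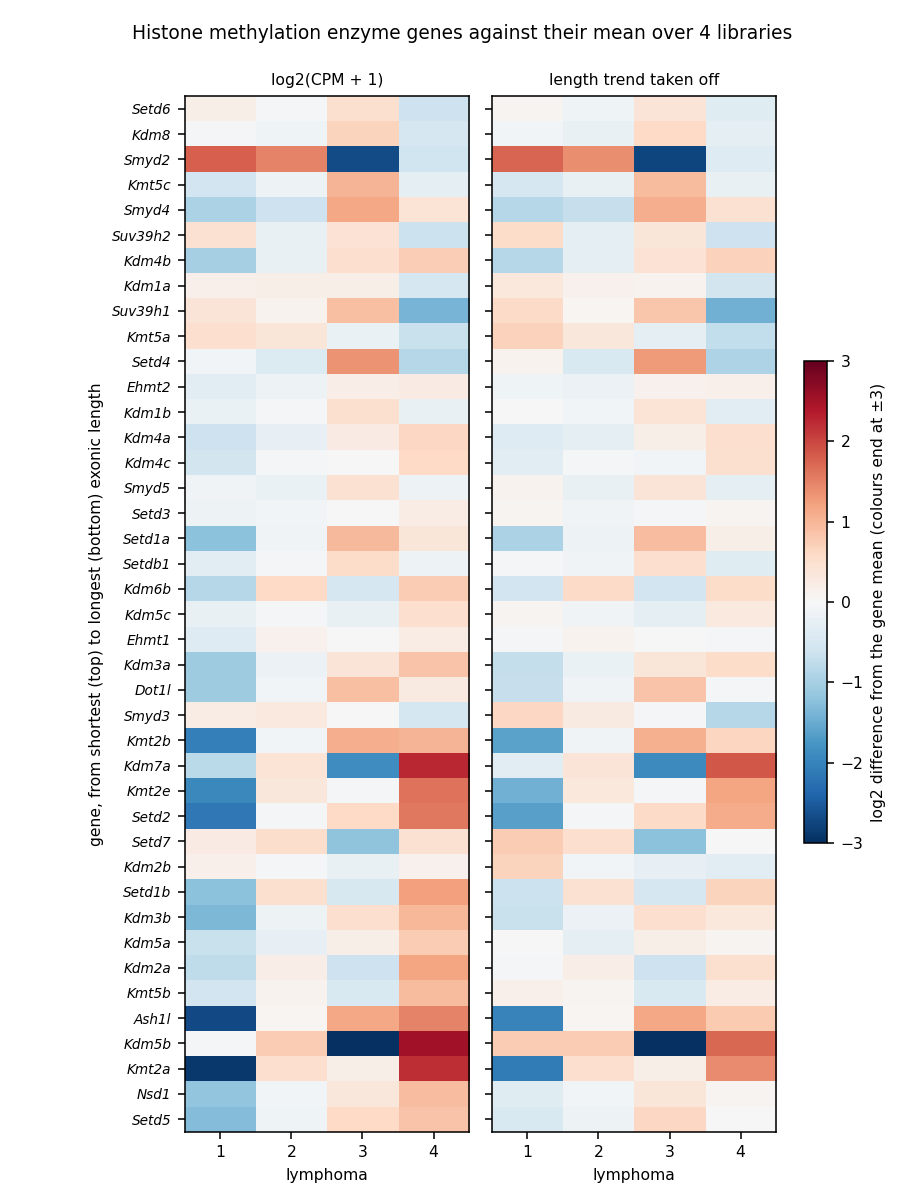
Each row is 1 enzyme gene, ordered by exonic length from the shortest (Setd6) to the longest (Setd5), and each column 1 library. Colour gives the log2 difference from the gene's mean over the 4 libraries, in log2(CPM + 1) on the left and with the length trend of all genes taken off on the right. The blue of lymphoma 1 and red of lymphoma 4 in the lower rows are paler on the right, while Kdm5b, Kdm7a and Smyd2 keep strong contrasts.

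Promoter sequence is shown for 4 genes that stand at opposite ends of the comparison with lymphoma 4 and were picked after their values were seen. Kmt2a and Setd2 were highest in that library, and Suv39h1 and Kmt5a were lowest there. The stretches are the 150 bases directly before the transcription start, written 5′ to 3′ on the strand of the gene, from RefSeq on GRCm38.p6. They span chr9:44881290-44881439 (minus strand) for Kmt2a, chr9:110532447-110532596 (plus strand) for Setd2, chrX:8074761-8074910 (minus strand) for Suv39h1 and chr5:124439780-124439929 (plus strand) for Kmt5a. Capitals mark the motifs CCAAT and GGGCGG on either strand, which read ATTGG and CCGCCC on the reverse strand.
Kmt2a: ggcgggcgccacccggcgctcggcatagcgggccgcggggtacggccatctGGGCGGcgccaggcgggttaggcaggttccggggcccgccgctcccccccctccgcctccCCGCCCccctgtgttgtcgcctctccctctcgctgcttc
Setd2: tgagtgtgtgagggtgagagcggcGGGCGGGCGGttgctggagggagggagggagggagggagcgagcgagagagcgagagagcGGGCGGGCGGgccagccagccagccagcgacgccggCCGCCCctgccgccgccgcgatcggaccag
Suv39h1: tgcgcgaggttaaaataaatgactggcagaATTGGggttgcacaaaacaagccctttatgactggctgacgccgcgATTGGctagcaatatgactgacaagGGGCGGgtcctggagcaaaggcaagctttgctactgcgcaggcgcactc
Kmt5a: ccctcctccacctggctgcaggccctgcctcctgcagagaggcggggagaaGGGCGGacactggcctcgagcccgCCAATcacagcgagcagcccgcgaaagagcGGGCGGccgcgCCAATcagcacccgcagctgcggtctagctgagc
CCAAT, the box bound by the factor NF-Y in many cell cycle promoters, was found in the Suv39h1 and Kmt5a stretches and in neither of the others. GGGCGG, the core of a binding site for Sp1, was found in all 4. Of the 44 genes, 33 had a promoter entry of 300 bases (250 before the start and 50 after). CCAAT was present in 16 of the 33 (48.5%), against 37.4% of 32851 promoters of that length, and GGGCGG in 22 (66.7%), against 35.7%. These shares are not matched. The 33 hold 1 start per gene, whereas the 32851 hold every listed start, whether or not the gene was expressed here. Median GC content was 61.3% in the 33 and 52.7% in the 32851. Among the 30 enzyme genes with both an entry and 1 CPM, CCAAT was in 4 of 13 that were highest in lymphoma 4 and in 9 of 17 that were not. These letters are a description and not a test of a factor.

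Among the H3K4 writers, 5 of 6 were lowest in lymphoma 1. That share was 39.5% over all genes tested and 53.5% over genes longer than 6616 bases, as these 5 are. The median level of the group was 4.42, 6.26, 6.59 and 7.04 log2(CPM + 1) in lymphomas 1 to 4. With the length trend taken off it was 4.89, 6.24, 6.59 and 6.57, so lymphoma 4 no longer lay above lymphoma 3. Lymphoma 1 stayed the lowest library of the same 5 genes. Kmt2a (chromosome 9, 44803355 to 44881296, minus strand, GRCm38), which encodes the MLL1 methyltransferase, was at 12.1, 138, 109 and 457 CPM. Lymphoma 1 lay far below the others and lymphoma 4 above them, a 37.7-fold range, and the value of 3.53 for the log2 range without the length trend is the largest among the H3K4 writers. Kmt2b (chromosome 7, 30568858 to 30588726), its closest paralog, was at 19.2, 77.2, 177 and 168 CPM. Lymphomas 3 and 4 overlapped within counting error there, and with DESeq2 size factors lymphoma 4 was the higher of them. Kmt2e (chromosome 5, 23434441 to 23504235), which encodes the SET and PHD finger protein MLL5, was at 21.6, 108, 84 and 267 CPM, and lymphoma 1 was again far below the rest.

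Setd1a and Setd1b encode the catalytic subunits of the COMPASS complexes that place most H3K4 trimethylation. Setd1a was at 25, 55.3, 118 and 77.5 CPM, highest in lymphoma 3. Setd1b was at 17.7, 59.8, 30.2 and 101 CPM, highest in lymphoma 4. These paralogs thus had different top libraries although both were lowest in lymphoma 1. In the annotation used here, 52.3% of the exonic bases of Setd1a also belong to Gm49388, a gene on the same strand, so its count is uncertain. Setd7, which monomethylates H3K4 and non-histone proteins, ran against its group at 61.5, 74.1, 21.6 and 70.6 CPM, with lymphoma 3 alone low.

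The 3 H3K36 writers that the symbol pattern covers gave the same order of libraries, 1 lowest, then 2, 3 and 4. Over all genes tested, 23.0% shared both the bottom and the top library of this order, and the share with the full order was not computed. The Nsd1 paralogs outside the pattern did not follow it. Nsd2 was at 64.2, 66.8, 154 and 41.2 CPM and Nsd3 at 29.4, 90.2, 82.6 and 224 CPM. Setd2 (chromosome 9, 110532597 to 110618633, plus strand), the enzyme for H3K36 trimethylation, was at 13.6, 61.7, 96.8 and 192 CPM, a 14.1-fold range. Ash1l (chromosome 3, 88950622 to 89079375, plus strand), which dimethylates H3K36, was at 7.45, 56.8, 123 and 156 CPM. Its interval in lymphoma 1, 5.67 to 9.61 CPM, was far below that of lymphoma 2, 51.9 to 61.9 CPM. Nsd1, also a dimethylating enzyme, had a smaller range at 50.7, 109.7, 148 and 219.6 CPM. With the length trend taken off, Nsd1 ranged over 0.72 on the log2 scale, and Ash1l over 3.16, with lymphoma 3 and no longer lymphoma 4 as the top library of both. The summed B cell markers had the same order of libraries as this group (67.1, 1359.6, 4409 and 5991 CPM), and their part was not tested. Singly, 5 of the 8 markers were highest in lymphoma 4 and 3 in lymphoma 3, and Ms4a1 was lower in lymphoma 3 (99.2 CPM) than in lymphoma 2 (167 CPM).

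H3K9 writers had the lowest median SD of the writer groups, 0.38 on the log2 scale over the 5 genes that reached 1 CPM. Ehmt2, which encodes G9a, had the highest level per kilobase of all 44 genes in each of the 4 libraries. It was at 192, 217, 277 and 284 CPM (242 ± 45.0, SD, n = 4), a mean of 44.1 ± 8.21 CPM per kilobase. The gene with the second highest mean per kilobase, Kmt5a, was at 18.1 ± 6.35. Ehmt1, which encodes the GLP partner of G9a, was at 34.9, 50.5, 46.7 and 54.2 CPM. Its log2 range of 0.62 came to 0.15 with the length trend taken off.

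Suv39h1, one of the enzymes that trimethylate H3K9 in pericentric heterochromatin, was at 92.6, 75.4, 132 and 26.3 CPM. Lymphoma 4 was the lowest and its interval lay clear of the rest. Suv39h2 had a similar bottom library at 21.2, 12.9, 20.8 and 9.35 CPM, where lymphomas 2 and 4 overlapped within counting error. The log2 range of Suv39h1 was 2.29, and 2.27 with the length trend taken off. Lymphoma 4 was also the lowest library for 11 of 12 proliferation markers, and the part of proliferating cells in these values was not tested. Setdb1, which acts with Trim28 on retroelements, was at 47.9, 57.2, 88.5 and 53.8 CPM, with lymphoma 3 clear of the others.

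Among the writers of the other marks the libraries had no common order. Dot1l, the H3K79 methyltransferase, was at 27.3, 55.3, 109.7 and 70.4 CPM, highest in lymphoma 3. Kmt5a, the enzyme for H4K20 monomethylation whose level follows the cell cycle, was at 129, 118, 79.5 and 56.6 CPM. Its intervals overlapped between lymphomas 1 and 2 and lay lower in lymphomas 3 and 4. Kmt5b and Kmt5c, which add the further methyl groups at H4K20, were highest in different libraries. Kmt5b was at 32.0, 51.1, 34.3 and 92.5 CPM and Kmt5c at 26.8, 36.2, 82.0 and 32.5 CPM.

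In the SMYD family Smyd2 stood out. Smyd2 (chromosome 1, 189880492 to 189922363, minus strand), which methylates histones and also p53, was at 78.1, 63.0, 2.55 and 14.1 CPM. Its 26 counts in lymphoma 3 give an interval of 1.67 to 3.74 CPM, and the range was 30.6-fold. It was the only 1 of the 8 genes with a large spread that was highest in lymphoma 1, and its log2 range was 4.48, and 4.50 with the length trend taken off. The summed T cell markers were also highest in lymphoma 1 and lowest in lymphoma 3, and their part in these values was not tested. The antisense gene Gm37422 covers 29.96% of its exonic bases, and the strand setting of the counts is not given in the sources used here. Smyd3 was at 26.0, 27.5, 22.2 and 15.2 CPM, Smyd4 at 7.58, 9.81, 36.2 and 21.1 CPM and Smyd5 at 42.4, 40.04, 63.0 and 41.0 CPM. The muscle gene Smyd1 had between 0 and 5 counts per library.

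The remaining SETD genes split by library. Setd5 had the longest exonic sequence of the set and followed the H3K36 writers at 39.7, 90.4, 151 and 182 CPM. Setd3, which methylates a histidine of actin, had the smallest SD of the 41 at 66.7, 70.1, 74.0 and 86.6 CPM (74.4 ± 8.71, SD, n = 4). This rank rests on the scaling, since its log2 range was 0.37 by TMM and 0.85 with no scaling factor, where that of Kdm2b was 0.50. Setd4 was instead 5.07-fold higher in lymphoma 3 than in lymphoma 4, at 14.3, 11, 40.1 and 7.92 CPM. Setd6, the methyltransferase of the NF-kB subunit RelA, was at 21.5, 18.3, 26.5 and 11.8 CPM.

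Erasers of H3K4 fall into the LSD and the KDM5 enzymes, and these differed. Kdm1a, which encodes LSD1, was nearly level in lymphomas 1 to 3 at 93.3, 95.2 and 94.9 CPM and lower in lymphoma 4 at 59.2 CPM. Kdm1b, which encodes LSD2, was at 64.4, 72, 104 and 63.4 CPM, with lymphoma 3 clear of the rest. In contrast, the 3 KDM5 genes, whose products demethylate H3K4 trimethylation, were each highest in lymphoma 4 before any correction for length.

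Kdm5b (chromosome 1, 134560171 to 134635285, plus strand) had the largest spread of the 44 genes. It was at 13.8 CPM in lymphoma 1 (interval 11.3 to 16.6), 24.6 in lymphoma 2 (21.5 to 28.1), 0.589 in lymphoma 3 (0.216 to 1.28) and 86.2 in lymphoma 4 (80.3 to 92.5). None of the 4 intervals overlapped, and the 6 counts of lymphoma 3 lay 146-fold below the level of lymphoma 4. Its paralogs had far smaller ranges. Kdm5a was at 47.9, 64.5, 87.3 and 132 CPM, and the X-linked Kdm5c at 92.3, 103, 92.3 and 153 CPM. With the length trend taken off, the log2 range of Kdm5b was 4.96, against 0.44 for Kdm5a and 0.56 for Kdm5c. Kdm5a then had lymphoma 3 as its top and lymphoma 2 as its bottom library. Kdm5c, level in lymphomas 1 and 3 before, then had lymphoma 3 as its bottom library.

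Kdm7a (chromosome 6, 39136623 to 39206789, minus strand), an eraser of H3K9 and H3K27 dimethylation, shared the extremes of Kdm5b. It was at 25, 59.3, 11.4 and 218 CPM, lowest in lymphoma 3 and highest in lymphoma 4. Kdm6b, an H3K27 eraser induced by inflammatory signals, was at 42.9, 119, 54.5 and 134 CPM. Lymphomas 2 and 4 were high and overlapped within counting error, and lymphomas 1 and 3 were low. Kdm8 was low throughout at 11.2, 10.4, 18.9 and 7.81 CPM.

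All 5 KDM3 and KDM4 genes that reached 1 CPM, which encode H3K9 erasers, ordered the libraries 1, 2, 3, 4 from lowest to highest. Of all genes tested, 23.0% had lymphoma 1 as the lowest and lymphoma 4 as the highest library, and the share with the full order was not computed. Kdm3b was at 31.5, 73.2, 117 and 164 CPM and Kdm3a at 21, 40.3, 59.9 and 82.2 CPM. Kdm4a, whose product also demethylates H3K36, had the highest mean level per kilobase of the group (17.9 ± 6.604, SD, n = 4) and was at 64.0, 83.0, 117 and 151 CPM. Kdm4b was at 20.1, 34.7, 58.2 and 68.5 CPM and Kdm4c at 15.8, 23.0, 23.4 and 36.3 CPM, the latter with lymphomas 2 and 3 alike within counting error. The log2 range of Kdm4a was 1.22, and 0.90 with the length trend taken off, with the top and bottom libraries as before. That of Kdm3b came from 2.35 to 1.17, and its top library became lymphoma 3. Lymphoma 1 stayed the lowest and lymphoma 4 the highest for Kdm3a, Kdm4b and Kdm4c. The summed B cell markers had the same order of libraries as these genes, though 3 of the 8 were singly highest in lymphoma 3, and their part was not tested. The antisense gene Gm26538 covers 24.6% of the exonic bases of Kdm3b.

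The KDM2 erasers of H3K36 dimethylation parted from each other. Kdm2a was at 56.2, 110.1, 61.4 and 218 CPM, high in lymphomas 2 and 4. Kdm2b, which recruits a Polycomb complex to CpG islands, had 1 of the 3 smallest SDs at 52.2, 44.7, 40.1 and 51.7 CPM (47.2 ± 5.80, SD, n = 4). Its order turned with the scaling, since lymphoma 1 was above lymphoma 4 by TMM scaling and below it with no scaling factor.

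Within a library, the share of a paralog pair's counts held by its first gene does not depend on scaling. Of 12 pairs among the enzyme genes, 5 differed by 20 percentage points or more between libraries. Smyd2 held 75% of the counts of Smyd2 and Smyd3 in lymphoma 1 (exact binomial 95% interval 71.9 to 77.9) and 10.3% in lymphoma 3 (6.85 to 14.8). From the deposited FPKM, which are per length, the Smyd2 share was 92.5% and 47.5% in those libraries. Kmt5b held 29.5% of the Kmt5b and Kmt5c counts in lymphoma 3 and 74.0% in lymphoma 4, with 54.4% and 58.5% in lymphomas 1 and 2. The share of Setd1a in Setd1a and Setd1b was 58.6%, 48.1%, 79.7% and 43.4%. Lymphoma 3 was therefore at an end of all 3 of these pairs.

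Kmt2a held 38.7%, 64.1%, 38.1% and 73.1% of the Kmt2a and Kmt2b counts, so lymphomas 1 and 3 were alike and lymphomas 2 and 4 were higher. Kdm2a held 51.9%, 71.1%, 60.5% and 80.9% of the Kdm2a and Kdm2b counts. In all 5 of these pairs the gene with the longer transcript held more of the counts in lymphoma 4 than in lymphoma 1. That gene is Kmt2a (16670 against 9596 bases), Kdm2a (14446 against 10869), Kmt5b (14752 against 4001), Setd1b (12068 against 6795) and Smyd3 (9184 against 2717). By contrast, the share of Ehmt1 in Ehmt1 and Ehmt2 stayed between 14.4% and 18.9%, and that of Kdm3a in Kdm3a and Kdm3b between 33.3% and 40.0%. The range of the Kdm3a share was 6.65 percentage points by counts and 10.7 by FPKM. The 5 pairs above were picked by the size of their change. Of the other pairs, the longer Suv39h1 and Kdm4a held less in lymphoma 4 (73.8% and 68.7%) than in lymphoma 1 (81.4% and 76.1%). The longer Ehmt1, Kdm1b, Kdm3b and Kdm5a held more in lymphoma 4, and Setdb1 held 100% in both libraries.

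**Figure D4:**
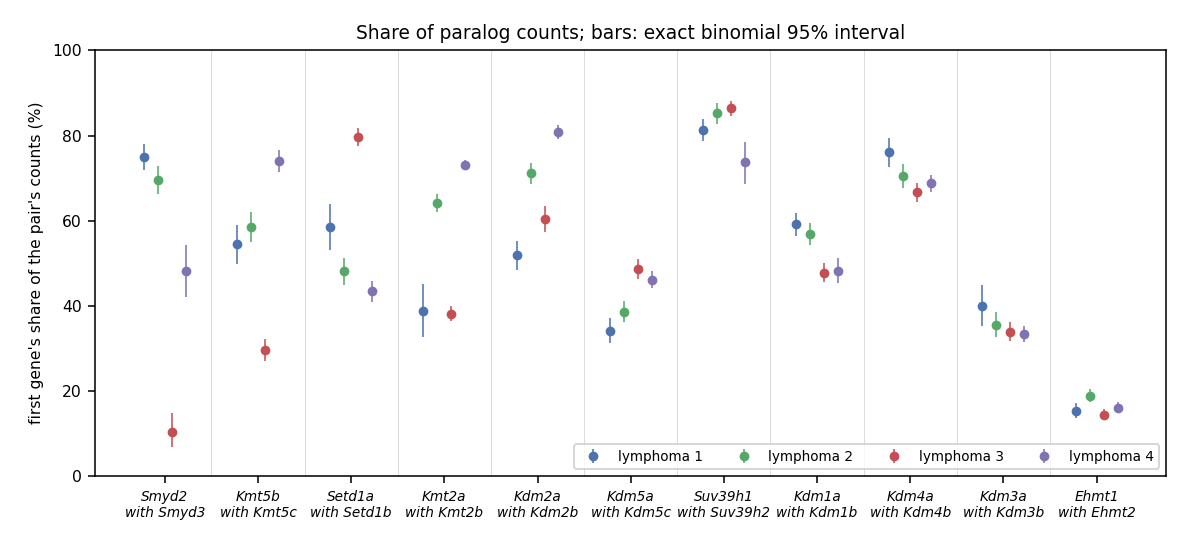
Share of a paralog pair's counts held by the first gene named, in percent, for 11 pairs in lymphomas 1 to 4, ordered by the range of the share. Points are libraries and bars exact binomial 95% intervals. The share of Smyd2 falls from 75% in lymphoma 1 to 10.3% in lymphoma 3, while that of Ehmt1 lies between 14.4% and 18.9% in all 4.

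Writer and eraser RNA of the same mark can be set side by side per kilobase of exonic length. The sums are partial. The LSD erasers of H3K4, at 29.7, 31.5, 37.2 and 23.0 CPM per kilobase in lymphomas 1 to 4, are not in them. Nor are Nsd2 and Nsd3 in the H3K36 writer sum, or Kmt2c and Kmt2d in that of H3K4. Kdm4a, whose product also demethylates H3K36, is counted under H3K9 only. Its level was 11.1, 14.4, 20.2 and 26.1 CPM per kilobase, above the KDM2 sums of 8.69, 11.7, 7.95 and 19.9. Summed H3K4 writer RNA was 0.909, 2.27, 2.86 and 2.68 times that of the KDM5 erasers in lymphomas 1 to 4. Kmt2e is in that writer sum by family, and its activity on H3K4 was not measured here. It gave 2.07, 10.3, 8.04 and 25.6 of the 15.6, 46.6, 54.9 and 96.8 CPM per kilobase. Summed H3K36 writer RNA was 0.537, 1.35, 3.24 and 2.06 times that of the KDM2 erasers. For H3K9 the order turned round, with 3.03, 2.01, 1.92 and 1.08 times as much writer as KDM3 and KDM4 eraser RNA. Lymphoma 1 was thus at the low end for H3K4 and H3K36 and at the high end for H3K9, and lymphoma 4 at the low end for H3K9. These are ratios of RNA in single libraries, and Ehmt2 is the largest term of the H3K9 sum. Division by length does not take off the length trend between libraries. The ratios were not computed without that trend, and its part in them was not tested.

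Partner genes of these enzymes are given by list, to be read against the shares of all genes that were lowest in lymphoma 4 (33.2%) and in lymphoma 1 (39.5%). Of 9 genes listed for COMPASS complexes, not all of which serve every H3K4 writer, 5 were lowest in lymphoma 4 and 3 in lymphoma 1. Hcfc1, with the highest mean CPM, was at 77.8, 119.9, 247 and 188 CPM, and Dpy30, with the largest SD, at 94.7, 72, 51.7 and 27.2 CPM. Of 11 PRC2 genes, the complex that methylates H3K27, 6 were lowest in lymphoma 4, and Rbbp4 was at 790.5, 612, 408 and 187 CPM. Phf1 had the largest SD there and was at 4.17, 50.4, 25.9 and 109.6 CPM. It was 1 of 3 PRC2 genes (the others being Ezh1 and Jarid2) with lymphoma 1 at the bottom and lymphoma 4 at the top.

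Of 7 HP1 and other H3K9 reader genes, 5 were lowest in lymphoma 4, as Suv39h1 was. Trim28 was at 718, 565, 576 and 197 CPM and Uhrf1 at 230.0, 169, 522 and 30.6 CPM. Of 8 CoREST genes, partners of LSD1, 4 were lowest in lymphoma 4 and 3 in lymphoma 1. Hdac1 was at 246, 188, 213 and 148 CPM and Phf21a at 3.54, 30.3, 9.42 and 69.4 CPM. Other JmjC genes were lowest in lymphoma 1 for 5 of 9, a list that holds Kdm7a under an older symbol and Jarid2 again, and Jmjd1c, a KDM3 relative outside the pattern, was at 6.95, 60.1, 114 and 221 CPM.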

How the data were processed

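Poly(A) RNA was sequenced from 4 libraries of 1 labelled group. The authors deposited whole-number gene counts (STAR 2.4.2a, mm10, per the submitters' processing notes) and a table read as FPKM (Cufflinks 2.2.1, per the same notes), which names no unit. For the annotation, the strand and any filter, the processing is not given in the sources used here. Of the FPKM columns, 5 match no sample label and were not used. In 26 count rows the symbol had become a date, and these (0.191% to 0.201% of counts) were left out.

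CPM used TMM factors (0.838, 0.961, 1.06 and 1.17) from edgeR 4.0.16 in R 4.3.3. Genes with 1 CPM or more before scaling in any library were tested (13543). Log values are log2(CPM + 1), which understates changes of low genes. A count of 0 allows up to 3 counts (0.294 to 0.379 CPM), and intervals and floors cover counting error only. Exonic length is the union of exons in GENCODE M21 (GRCm38), matched by symbol. The length trend was a lowess (statsmodels 0.14.6, fraction 0.3) of each library's log2 deviation from the gene mean on log2 length. Named genes are those with a large spread, the highest mean and largest SD of each role group or list (of marker lists only some are printed), the 3 smallest SDs and pairs whose share moved by 20 percentage points, and others are named to account for every gene. The genes, groups and lists were chosen with earlier results of these data known. Alternatives included DESeq2 1.42.0 size factors and the FPKM table.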

Additional observations from a re-analysis of the deposited data

Results flagged for a closer look

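In 3 of 41 enzyme genes 1 library lay far from the other 3, its gap to the nearest as a share of the range of log2(CPM + 1), being above Dixon's 95% critical value for 4 values. Chance gives this for about 1 in 20 groups of independent values, and 8.95% of all 13543 genes tested had such a gap, so the 7.32% found here is no more than the background. Kdm1a was lower in lymphoma 4 (59.2 CPM) than in the other libraries (93.3 to 95.2 CPM), with a gap of 0.958 of the range. Setd7 was lower in lymphoma 3 (21.6 CPM, against 61.5 to 74.1 CPM), with a gap of 0.848. Smyd5 was higher in lymphoma 3 (63.0 CPM, against 40.04 to 42.4 CPM), with a gap of 0.872. The cause of these gaps was not tested.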

How the results depend on the processing

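The number of enzyme genes with an 8-fold range was 8, and came to 5 with the length trend taken off, to 16 with a 4-fold rule, and to between 3 (without lymphoma 1) and 8 with 1 library left out. The number lowest in lymphoma 1 was 26, and 17 with the length trend taken off, and between 25 and 29 with 1 library left out. The number highest in lymphoma 4 was 22, between 15 (length trend taken off) and 25 under the other settings, and between 23 and 26 with 1 library left out. The median SD was 0.80, fell to 0.58 with the length trend taken off, and was between 0.52 (without lymphoma 1) and 0.91 with 1 library left out. Without TMM factors the median of all genes shifted by 0.39 (log2) for the ratio of lymphoma 4 to 1, and Kdm1b, Kdm2b and Smyd5 changed direction in that ratio. With DESeq2 size factors Kdm1a, Kdm2a, Kdm5c and Kmt5b changed direction in the ratio of lymphoma 3 to 1. For the 28 genes whose ranges were recomputed, 219 of 252 values moved by less than 1 SD between libraries, and in 0 did the top and bottom library change places. That SD is the gene's own and is a wide yardstick. By it the range of Kmt2a, 5.13 and 3.53 with the length trend taken off, did not move. Leaving out a library that is neither top nor bottom changes a range only through scaling, so most values without lymphoma 2 could hardly move. From FPKM, the ranges of the Suv39h1, Setdb1 and Kdm3a shares in their pairs moved to 5.39, 18.4 and 10.7 percentage points, from 12.6, 0.581 and 6.65, while those of the other 9 pairs moved by less than 1 SD. Leaving out a library removes samples by construction, and for the other changes the cause was not tested. No paired analysis was possible because the labels give 1 group only. Depth limits Smyd1, Setdb2 and Kdm4d, with at most 5 counts per library, and Kdm5b in lymphoma 3.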

Other observations

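Nsd2 and Nsd3, paralogs of Nsd1 that lie outside the symbol pattern, had opposite extremes. Nsd2, the H3K36 methyltransferase rearranged in human myeloma, was at 64.2, 66.8, 154 and 41.2 CPM, highest in lymphoma 3 and lowest in lymphoma 4. Nsd3 was at 29.4, 90.2, 82.6 and 224 CPM, highest in lymphoma 4 and lowest in lymphoma 1. Nsd2 held 68.6%, 42.5%, 65.0% and 15.5% of the counts of the pair, a wider range than that of 11 of the 12 pairs among the enzyme genes, Smyd2 and Smyd3 being the exception.

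The deposited tables differ for Setdb2, an H3K9 writer. It had 0, 3, 4 and 0 counts in lymphomas 1 to 4, but FPKM of 1.72, 3.11, 3.90 and 4.59. Relative to the median of 9760 genes, its counts per kilobase lay 6.46 below its FPKM on the log2 scale, outside the 5% to 95% range of all genes (-1.67 to 0.93). No other exonic sequence of the annotation overlaps the gene, and the cause was not tested. Kdm1b and Kdm5c lay 1.19 and 1.34 above their FPKM on that scale, also outside the range, and Suv39h2, at 0.93, lay at its upper end.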
